A study of Mus musculus with 16 samples.

Results

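The cytosolic ribosomal protein genes are the protein-coding genes of the GENCODE mouse M21 annotation whose symbol starts with Rpl or Rps and a digit, or is Rplp0, Rplp1, Rplp2 or Rpsa, without the Rps6k kinases. The rule took 92 of 21938 protein-coding genes on the autosomes, X and Y. Of these 31 code for proteins of the small subunit and 46 for proteins of the large subunit, and these 77 genes are called the standard genes here. A further 9 are like-genes, retrogenes or binding proteins named after a ribosomal protein, and 6 carry the suffix -ps of a pseudogene name although the annotation lists them as protein-coding. Symbols alone chose the genes, with no measured value.

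Open chromatin was measured by ATAC-seq, in which a transposase cuts and tags accessible DNA, in CD8+ T cells grown in culture into effector (TE) or memory (TM) cells. The 16 libraries formed 4 groups of 4. WT TE and WT TM came from mice labelled TPdh+/+, and TPdh-/- TE and TPdh-/- TM from mice in which a floxed Pdha1 gene, coding for the E1 alpha subunit of the pyruvate dehydrogenase complex, was deleted by Cre under the Cd4 promoter. Per the study's methods, spleen T cells of adult mice of both sexes were used, and TE were grown with IL-2 and TM with IL-15. For this culture the methods name OT-I cells, which were first activated with OVA peptide. Cre from the Cd4 promoter is known to act in developing T cells before the CD4+ and CD8+ lineages part. The labels do not give the sex of the mice behind a library, and they do not say whether replicates came from separate animals, so the spread between replicates may be partly technical. The design asks how the loss of the complex changes open chromatin in TM and in TE, and, within each genotype, what sets TM apart from TE.

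Cytosolic ribosomes are built from a small and a large subunit, each of ribosomal RNA and many proteins made in equal numbers. The genes for these proteins are active in every dividing cell, and most have short promoters with a start site inside a run of pyrimidines, which places their messenger RNAs under the control of the mTOR pathway at the step of translation. T cells make many ribosomes when they are activated and grow.

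A gene was said to have a promoter peak in a library when the summit of a deposited peak lay within 1000 bp of any of its annotated starts. Its value was the fold enrichment of the strongest such peak, that is the summit pileup over the local background with a pseudocount added to both. The shortest list, with 2290 peaks, was that of WT TE replicate 3, and the longest, with 86637, that of TPdh-/- TM replicate 2. Depth was measured as background coverage, the number of fragments over an ordinary base, which averaged 1.18 ± 0.406 over the 4 WT TE libraries and 0.324 ± 0.13 over the 4 TPdh-/- TE libraries (SD). For the TM libraries it averaged 0.411 ± 0.107 with WT and 0.224 ± 0.0309 with TPdh-/- cells (SD, n = 4). Because list length differed between groups, presence was also scored in equal-sized lists, cut to the 2290 peaks of a library that ranked highest by −log10 q-value. This sets list length equal and leaves the difference in depth. T cell markers had promoter peaks in few libraries. Of 9 T cell markers found, Cd8b1 had a peak in 8 libraries, Cd3d and Lck in 6 each, Ptprc in 4 and Cd3g in 3. Cd3e, Cd247 and Cd8a had a peak in 2 libraries each and Cd2 in 0. The median was 3 libraries for these 9 genes, against 2 for all protein-coding genes. Cd4 and the B cell gene Cd79a had a peak in 0 libraries, as did the myeloid gene Lyz2 and the epithelial gene Krt8. Csf1r, a myeloid receptor gene, had a peak in 4 libraries, the B cell gene Ms4a1 and the epithelial gene Epcam in 2 each, and the myeloid gene Itgam and the liver gene Alb in 1 each.

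Many ribosomal protein genes had promoter peaks present in some libraries of a group and absent in others. A peak in all 4 libraries was held by 8.7% of the 92 genes in WT TE, against 3.43% of all genes. It was 1.09% against 0.684% in TPdh-/- TE, 0% against 0.479% in WT TM and 10.9% against 6.12% in TPdh-/- TM. No peak in the group was found for 35.9%, 39.1%, 44.6% and 20.7% of the 92, against 63.1%, 51.9%, 58.7% and 42.4% of all genes. Over the 16 libraries the median gene had a promoter peak in 4.5 libraries, and the median standard gene in 5, against 2 for all protein-coding genes. At least 1 library had a peak at 82 of the 92 genes (89.1%, against 73.5% of all protein-coding genes). None of the 92 had a peak in all 16 libraries, which 8 of all 21938 genes had. The number of libraries also went with the number of annotated starts, which was 5 for the median ribosomal protein gene and 3 for the median protein-coding gene. Among genes with 5 or more starts, the median was 5 libraries for the 53 ribosomal protein genes and also 5 for all 7831 genes. Among genes with 2 to 4 starts, it was 3.5 libraries for 28 ribosomal protein genes and 1 for 9225 genes. With 1 start it was 0 for 11 ribosomal protein genes and 0 for all 4882 genes.

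Counted by library, WT TE had 32, 35, 17 and 33 of the 92 genes with a promoter peak in replicates 1 to 4. TPdh-/- TE had 15, 7, 27 and 38, and WT TM had 36, 8, 3 and 24. TPdh-/- TM had 35, 34, 35 and 45. In TPdh-/- TM 3 libraries lay close together and replicate 4 above them, while within each of the other groups the highest library had at least 18 genes more than the lowest. The same libraries were low for all genes: the share of protein-coding genes with a promoter peak was 8.36% in WT TE replicate 3, 8.17% in TPdh-/- TE replicate 2, 7.89% in WT TM replicate 2 and 4.66% in WT TM replicate 3, against 12.4% to 33.6% in the other 12 libraries. The share of ribosomal protein genes divided by the share of all genes was lowest in WT TM replicate 3, at 0.70, and highest in WT TE replicate 3, at 2.21. This ratio averaged 1.79 ± 0.334 for WT TE, 1.43 ± 0.0954 for TPdh-/- TM, 1.21 ± 0.237 for TPdh-/- TE and 1.11 ± 0.312 for WT TM (SD over 4 libraries each). In equal-sized lists WT TE had 12, 8, 17 and 22 of the genes, and the other 12 libraries had 0 to 3 each. All protein-coding genes showed the same division, with 7.46% to 9.56% of genes in the WT TE lists and 0.447% to 3.73% in the other lists.

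**Figure D1:**
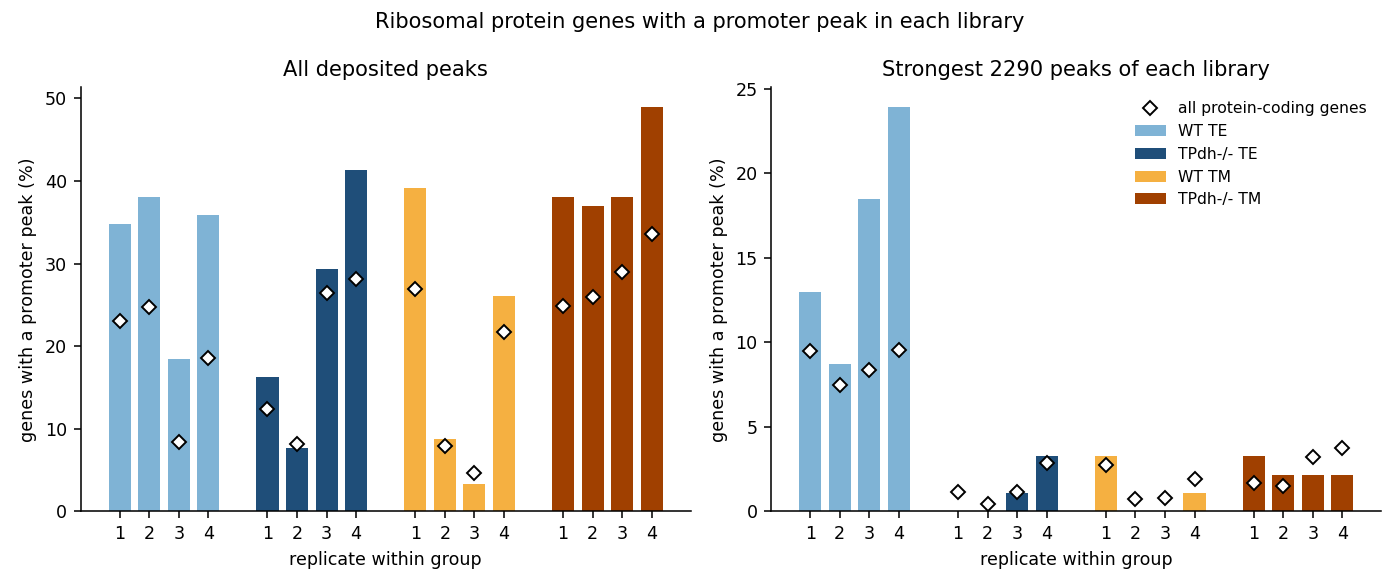
Bars show the percent of the 92 ribosomal protein genes with a promoter peak in each library, and diamonds the percent of all 21938 protein-coding genes, with all deposited peaks (left) and with the 2290 strongest peaks of each library (right). On the left TPdh-/- TM bars lie between 37% and 48.9% and the other groups spread widely. On the right the 4 WT TE bars lie between 8.7% and 23.9% and the other 12 at or below 3.26%.

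The peaks held few fragments. The summit pileup of a ribosomal protein gene's strongest promoter peak had a median of 7 fragments over 424 pairs of gene and library and a highest value of 24, and 88 of the pairs (20.8%) rested on 4 fragments or fewer. For all protein-coding genes the median was 6 fragments, and 22.5% of pairs rested on 4 or fewer. Fold enrichment reached 11.2, and the highest −log10 q-value was 15.1. Within a library the median fold enrichment of ribosomal protein genes was close to that of all genes with a promoter peak, 5.34 ± 0.208 against 5.33 ± 0.309 in WT TE, 4.58 ± 0.289 against 4.55 ± 0.393 in TPdh-/- TE, 5.02 ± 0.464 against 4.81 ± 0.365 in WT TM and 4.68 ± 0.76 against 4.74 ± 0.391 in TPdh-/- TM (SD over libraries, n = 4). Summits lay close to the starts. The median distance to the nearest start was 71.5 bp for ribosomal protein genes and 139 bp for all genes, and 62.3% of the former and 41.1% of the latter lay within 100 bp. A summit more than 500 bp away was found in 4.95% of the pairs for ribosomal protein genes and in 17.3% for all genes. A gene with more annotated starts has a nearer start by construction, and the part of start number in this difference was not tested.

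**Figure D2:**
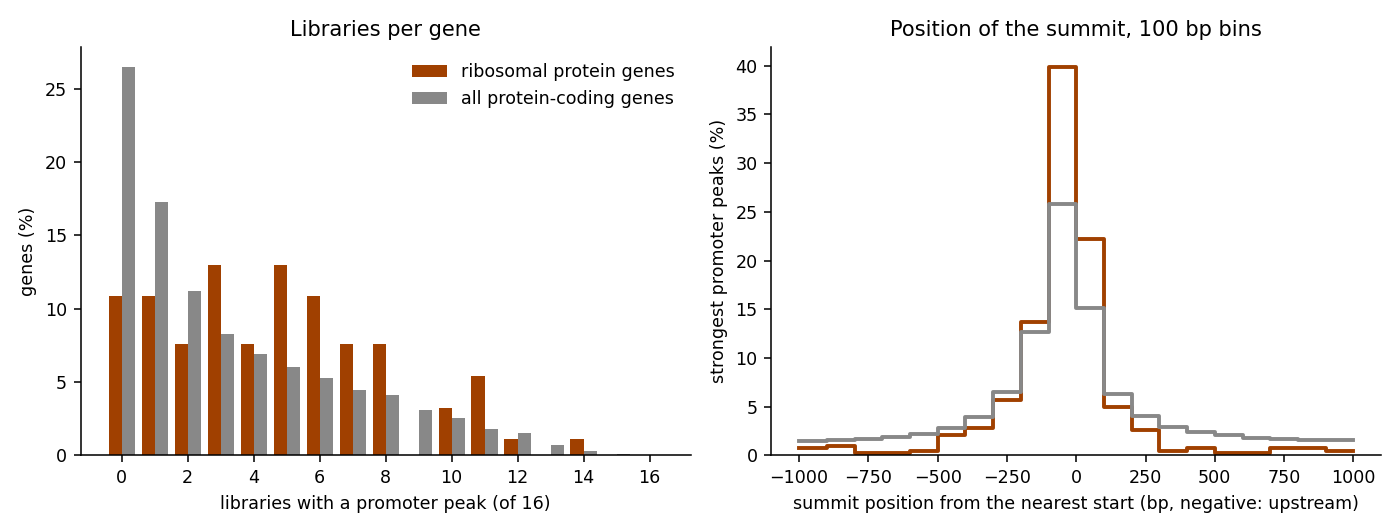
Left, percent of ribosomal protein genes (brown) and of all protein-coding genes (grey) by the number of libraries with a promoter peak. Right, position of the summit of the strongest promoter peak relative to the nearest annotated start in 100 bp bins, as percent of all pairs of gene and library. No peak in any library was seen for 10.9% of ribosomal protein genes and 26.5% of all genes, and the tallest brown bin lies just upstream of the start.

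Proteins of the small subunit bind and decode the messenger RNA. All 31 of their genes had a promoter peak in at least 1 library, with a median of 5 libraries. Rps23 (chr13:90922958-90924950, GRCm38, plus strand), whose product sits in the decoding centre, had a peak in 12 libraries. Its fold enrichment was 7.02, 7.34, 6.24 and 7.05 in WT TE and 3.17, 3.96, 3.88 and 7.73 in TPdh-/- TM. WT TM had 5.9, 5.58 and 4.91 in replicates 1, 3 and 4, and TPdh-/- TE had 4.23 in replicate 1 alone. The Rps23 peaks held 14, 11, 16 and 17 fragments at the summit in WT TE and 3, 4, 4 and 9 in TPdh-/- TM, without overlap, and the deeper libraries were those of WT TE. Rps27a, which codes for a fusion of ubiquitin and a ribosomal protein, had a peak in 11 libraries and reached 11.1 in TPdh-/- TM replicate 1 and 9.31 in replicate 2. The values of Rps27a in WT TE were 4.7 and 5.5, with no peak in replicates 3 and 4. Rps14 also had a peak in 11 libraries, among them all 4 of TPdh-/- TM, with 6.4, 5.35, 9.19 and 6.03. Windows of Rps27a and Rps14 also hold a start of another protein-coding gene, Clhc1 and Ndst1, so a peak there cannot be given to 1 gene of the pair. Rps4x had a peak in 1 library.

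Proteins of the large subunit surround the peptidyl transferase centre and the exit tunnel. A promoter peak was found in at least 1 library for 44 of their 46 genes, and the median was again 5 libraries. Rpl15, Rpl27a and Rpl30 had a peak in 11 libraries each, and Rpl27 and Rpl37 in 10 each. Rpl27a had 5.11, 6.65, 5.76 and 5.27 in WT TE, with 4.03, 6.35 and 3.23 in TPdh-/- TE replicates 1, 3 and 4. The values of Rpl27a were 7.22 and 6.4 in WT TM replicates 1 and 4 and 4.76 and 5.2 in TPdh-/- TM replicates 2 and 4. The WT TM values lay above all values of TPdh-/- TE and TPdh-/- TM, and the range of WT TE overlapped that of each other group. Rpl37 had 5.46, 7.44, 4.37 and 6.12 in WT TE and 4.71, 6.11, 7.38 and 8.24 in TPdh-/- TM, and a single library with a peak in each of the other groups, 3.97 in TPdh-/- TE replicate 3 and 7.7 in WT TM replicate 1. The window of Rpl15 also holds a start of Nkiras1. Over all 92 genes, 19 shared a window with a start of another protein-coding gene. These 19 had a median of 4 libraries, and the 73 others had a median of 5. Rpl8 and Rpl23 had no promoter peak in any library.

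The P-stalk is the flexible arm of the large subunit that recruits translation factors, with Rplp0 at its base and Rplp1 and Rplp2 as its tips. Their genes had a peak in 7, 5 and 7 libraries. Rplp0 (chr5:115559467-115563727) had the highest single fold enrichment of the 92 genes in WT TE, with 9.09, 8.27, 6.12 and 6.07 in replicates 1 to 4 and 24, 15, 17 and 21 fragments at the summit. Outside WT TE it had 8.86 in TPdh-/- TE replicate 4, 5.37 in WT TM replicate 4 and 3.2 in TPdh-/- TM replicate 1. Rplp2 had the other pattern, with 3.26, 3.17, 6.49 and 3.37 in TPdh-/- TM and a peak in a single library of each other group, 4.12 in WT TE replicate 1, 5.48 in TPdh-/- TE replicate 4 and 6.52 in WT TM replicate 4. The 3 lowest Rplp2 values in TPdh-/- TM rested on 3 fragments each. Rplp1 had 6.15 in WT TE replicate 4, 3.41 in TPdh-/- TE replicate 2, 5.32 in WT TM replicate 1, and 4.02 and 6.74 in TPdh-/- TM replicates 1 and 4. Rplp0 and Rplp2 had a peak together in 4 libraries, and TPdh-/- TM replicate 1 had one at all 3 genes.

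Like-genes had fewer peaks, with a median of 2 libraries and 4 of 9 without any, namely Rpl10l, Rpl39l, Rpl3l and Rps27rt. Rpl3l is known as the form of Rpl3 in striated muscle and Rpl10l and Rpl39l as testis forms. Rpl22l1, the paralog of Rpl22 that T cells also use, had a peak in 10 libraries and the highest fold enrichment of the 92 genes, 11.2 with 17 fragments in TPdh-/- TE replicate 4. Its other values ran from 3.67 to 6.87, and no peak was found in WT TE replicate 3, TPdh-/- TE replicates 1 to 3, WT TM replicate 3 or TPdh-/- TM replicate 2. Rpl22 itself had no peak in WT TE and 6.28, 4.08, 5.42 and 4.36 in TPdh-/- TM. In the other groups Rpl22 had 8.02 in TPdh-/- TE replicate 3, and 5.57 and 3.41 in WT TM replicates 1 and 4. Of the 6 genes with a pseudogene name, Rpl10-ps3 had a peak in 2 libraries, Rps12-ps3 in 1, and Rpl9-ps1, Rpl9-ps6, Rpl36-ps4 and Rpl36a-ps1 in 0. The authors removed reads that could be placed at more than 1 site, and in these 6 genes a median of 48.7% of the 1001 bp around the gene's first base had a copy elsewhere in the genome, with at least 95% identity over at least 50 bp in a search that left soft-masked repeats aside. The same share was 5.49% for the median standard gene, and 34 of 77 standard genes had no copy. Among standard genes Rps29 had the largest share, 53.8%, and a peak in 4 libraries. Rpl8 and Rpl23, without a peak, had no copy (0%). The part of copies in the absence of peaks elsewhere was not tested.

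**Figure D3:**
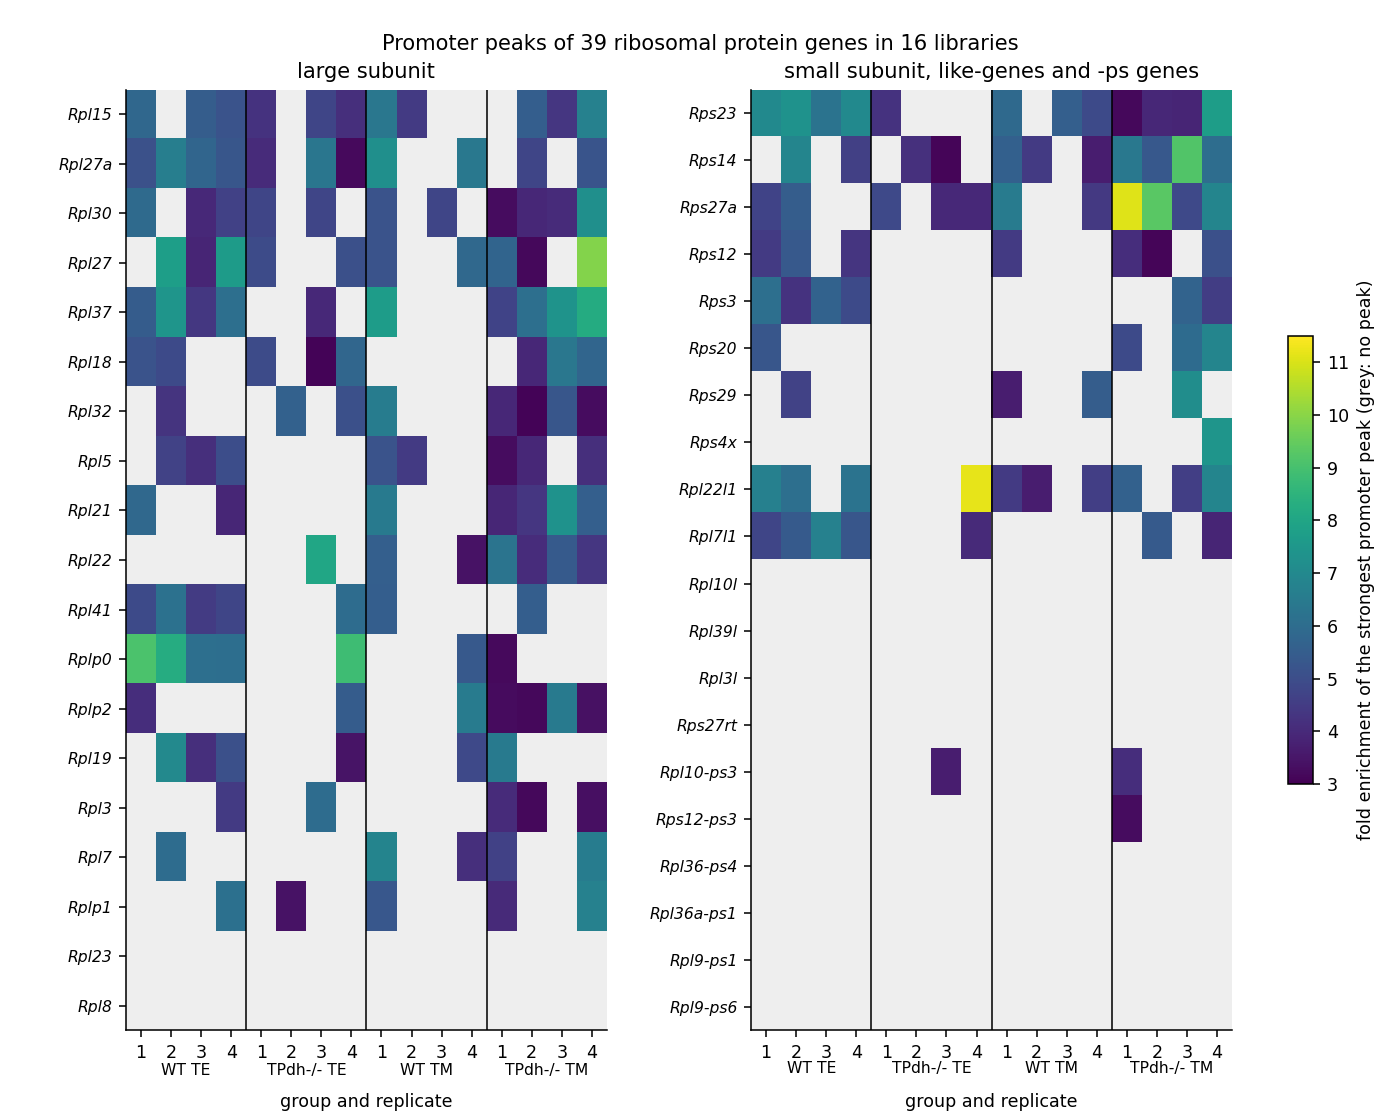
Each row is 1 of 39 ribosomal protein genes named in the text, sorted by the number of libraries within its class, and each column a library, numbered by replicate. Colour gives the fold enrichment of the strongest promoter peak and grey stands for no peak. No row is coloured throughout, and the rows of Rpl8 and Rpl23 are grey.

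Promoter sequences are shown for the 6 genes with a peak in 10 or more libraries that have an entry in the RefSeq promoter table (GRCm38.p6), for the genes that separated TE libraries by genotype or cell type (Rps3 and Rpl7l1, described below), and for Rpl23, which had no peak. The set was chosen after the values were seen. Of the 92 genes, 66 matched an entry by symbol, and Rps14, Rps27a, Rpl30 and Rpl21 were among those that did not. Each sequence runs from 130 bases before the RefSeq start to the 20th base from the start on, 150 bases in all, in lower case. Capitals mark matches, on either strand, to the 6 motifs searched, and a C at the start followed by at least 4 pyrimidines. The core of ETS factor sites was searched as CCGGAAG. The core of YY1 sites was searched as AAGATGGC. The GC box was searched as GGGCGG. The TATA box was searched as TATAAA. The CCAAT box and a further element, TCTCGCGA, completed the set, and none of these motifs lies within another. The regions are chr13:90922992-90923141 on the plus strand for Rps23, chr14:18270967-18271116 on the minus strand for Rpl15, chr7:109519065-109519214 on the plus strand for Rpl27a, chr3:28805378-28805527 on the plus strand for Rpl22l1, chr11:101442115-101442264 on the plus strand for Rpl27, chr15:5116483-5116632 on the plus strand for Rpl37, chr7:99483690-99483839 on the minus strand for Rps3, chr17:46782637-46782786 on the minus strand for Rpl7l1 and chr11:97782420-97782569 on the minus strand for Rpl23.
Rps23: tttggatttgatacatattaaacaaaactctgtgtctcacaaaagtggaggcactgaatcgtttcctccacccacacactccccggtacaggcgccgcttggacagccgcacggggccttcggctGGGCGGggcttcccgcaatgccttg
Rpl15: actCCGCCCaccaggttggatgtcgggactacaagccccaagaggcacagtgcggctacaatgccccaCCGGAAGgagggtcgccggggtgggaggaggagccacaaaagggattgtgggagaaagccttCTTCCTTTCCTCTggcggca
Rpl27a: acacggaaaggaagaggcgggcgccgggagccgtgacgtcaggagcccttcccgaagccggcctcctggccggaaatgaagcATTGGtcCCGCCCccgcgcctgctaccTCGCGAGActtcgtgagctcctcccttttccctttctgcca
Rpl22l1: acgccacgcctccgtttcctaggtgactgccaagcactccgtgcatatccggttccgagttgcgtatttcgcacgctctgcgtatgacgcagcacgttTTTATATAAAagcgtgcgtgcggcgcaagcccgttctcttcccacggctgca
Rpl27: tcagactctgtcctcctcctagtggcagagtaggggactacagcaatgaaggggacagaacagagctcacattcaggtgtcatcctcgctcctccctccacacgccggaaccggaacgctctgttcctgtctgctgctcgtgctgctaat
Rpl37: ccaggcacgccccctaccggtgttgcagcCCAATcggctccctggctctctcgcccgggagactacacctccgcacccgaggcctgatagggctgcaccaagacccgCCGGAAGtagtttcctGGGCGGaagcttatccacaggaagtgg
Rps3: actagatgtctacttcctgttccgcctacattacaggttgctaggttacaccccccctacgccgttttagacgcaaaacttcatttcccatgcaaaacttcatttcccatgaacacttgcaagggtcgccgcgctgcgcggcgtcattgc
Rpl7l1: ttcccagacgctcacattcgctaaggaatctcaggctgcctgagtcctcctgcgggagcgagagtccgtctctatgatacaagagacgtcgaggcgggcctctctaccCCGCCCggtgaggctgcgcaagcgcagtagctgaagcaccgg
Rpl23: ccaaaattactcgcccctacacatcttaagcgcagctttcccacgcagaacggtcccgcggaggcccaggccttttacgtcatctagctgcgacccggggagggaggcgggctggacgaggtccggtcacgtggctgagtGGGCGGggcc

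Among the 57 standard genes with a RefSeq promoter of 300 bases, 250 before the start and 50 from the start on, 23 (40.4%) held CCGGAAG, against 12.3% of the 16522 promoters of protein-coding genes. TCTCGCGA was found in 10 (17.5%, against 1.56%), and a C followed by at least 4 pyrimidines stood at the start in 12 (21.1%, against 2.2%). GGGCGG was found in 34 (59.6%, against 48%) and AAGATGGC in 4 (7.02%, against 3.29%). TATAAA (8.77%, against 12.9%) and CCAAT (31.6%, against 38.7%) were in smaller shares than over all promoters. These shares were not tested. The median number of libraries with a peak was 5 for standard genes with CCGGAAG and 4 for those without, and 6 with GGGCGG and 4 without. It was 3 with AAGATGGC and 5 without, 4 with the pyrimidine start and 5 without, and 4.5 with CCAAT and 5 without. It was 5 with and without TATAAA, and likewise for TCTCGCGA. In the sequences above, Rpl15 and Rpl37 hold CCGGAAG, 62 and 23 bases before the start, and Rpl27a holds TCTCGCGA on the minus strand 21 bases before it. Rpl22l1 holds 2 overlapping TATAAA matches, and Rpl15 starts with a run of 13 pyrimidines. Rpl27 and Rps3 hold none of the 6 motifs in the bases shown, and Rpl23 holds only a GC box beyond its start.

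The comparison of TPdh-/- TM with WT TM asks whether open chromatin at these promoters differs when memory cells lack the complex. More ribosomal protein genes had a peak in TPdh-/- TM, 37.2 ± 5.19 per library against 17.8 ± 15.1 in WT TM (SD, n = 4), and the ranges of 34 to 45 and 3 to 36 genes overlapped. The difference of 19.5 genes was 5.75 with peaks of −log10 q of at least 5 and 1.25 in equal-sized lists. The deeper libraries were those of WT TM, with background coverage of 0.354 to 0.572 against 0.186 to 0.261 fragments per base, and the part of depth in this comparison was not tested. Of the 92 genes, 53 (57.6%) had a peak in more TPdh-/- TM than WT TM libraries, 6 (6.52%) in fewer and 33 in as many, against 42.8% and 10.9% of all genes. At least 3 more TPdh-/- TM libraries had a peak at 8 genes (8.7%), among them Rpl3, Rpl18, Rpl21, Rpl32, Rpl37, Rplp2 and Rps20, against 4.59% of all genes. At least 3 more WT TM libraries were found for 0 of the 92 genes and 0.137% of all genes. Rpl21, Rpl32, Rpl37 and Rplp2 had a peak in 4 TPdh-/- TM libraries and 1 WT TM library, and Rpl3, Rpl18 and Rps20 in 3 and 0. Windows of Rpl3 and Rpl18 also hold a start of another protein-coding gene, Syngr1 and Sphk2.

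No ribosomal protein gene had a peak in all 4 libraries of one TM group and in none of the other, which 0.556% of all genes had in favour of TPdh-/- TM and 0.00456% in favour of WT TM. This pattern gives the smallest two-sided p of Fisher's exact test for 4 against 4 libraries, 0.0286, so 0 of the 92 genes had an unadjusted p under 0.05. After Benjamini-Hochberg adjustment over 21938 genes the smallest adjusted p was 1. As no unadjusted p can be lower than 0.0286, the adjustment could call a gene only if most of all genes met the pattern. This holds for all 4 comparisons, and their adjusted p-values say nothing about single genes. Without WT TM replicate 1, Rpl21, Rpl32 and Rpl37 met the pattern among the remaining 7 libraries, where the number of all genes in favour of TPdh-/- TM was 323, against 122 with all 8 libraries. Without WT TM replicate 4, Rplp2 met it, and leaving out TPdh-/- TM replicate 1, 2 or 3 added Rpl18, Rps20 or Rpl3, 1 gene each. Without TPdh-/- TM replicate 4 the count was also 1. In these 5 settings, 206 to 296 of all genes met it. In equal-sized lists WT TM had 3, 0, 0 and 1 of the genes and TPdh-/- TM had 3, 2, 2 and 2, and no gene differed by 3 or more libraries, against 0.137% of all genes with at least 3 more TPdh-/- TM libraries.

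The comparison of TPdh-/- TE with WT TE asks the same of effector cells. Ribosomal protein genes with a peak numbered 21.8 ± 13.6 per library in TPdh-/- TE and 29.2 ± 8.26 in WT TE (SD, n = 4), with ranges of 7 to 38 and 17 to 35 genes. The difference of -7.5 genes became -2.58 without TPdh-/- TE replicate 2, -12.9 without TPdh-/- TE replicate 4 and -11.6 without WT TE replicate 3. It was -13.8 in equal-sized lists. Over the 92 genes, 33 (35.9%) had a peak in fewer TPdh-/- TE than WT TE libraries, 21 (22.8%) in more and 38 in as many, against 20.6% and 24.5% of all genes. At least 3 more WT TE libraries were found for 8 genes (8.7%), against 2.1% of all genes. These were Rpl5, Rpl37, Rpl41, Rpl7l1, Rplp0, Rps3, Rps12 and Rps23. At least 3 more TPdh-/- TE libraries were found for 1.09% of the 92 genes, against 0.871% of all genes.

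Rps3 (chr7:99477896-99483738, minus strand) separated the TE libraries by genotype. It codes for a protein at the entry of the messenger RNA channel that also acts in DNA repair. Fold enrichment at Rps3 was 6.12, 4.26, 5.68 and 4.92 in WT TE, from 14, 6, 15 and 15 fragments, and no peak was found in any TPdh-/- TE library. The unadjusted p was 0.0286 and the adjusted p 1 (two-sided Fisher's exact test, Benjamini-Hochberg over 21938 genes). It was 1 of 92 genes (1.09%), against 0.21% of all genes with this pattern and 0.0684% with the opposite pattern, which 0 of the 92 had. With peaks of −log10 q of at least 5, Rps3 no longer had the pattern, and Rps23 had it instead (51 of all genes). Without TPdh-/- TE replicate 4, Rpl41, Rpl7l1 and Rplp0 joined it, and the number of all genes with the pattern rose from 46 to 157. Without TPdh-/- TE replicate 1, Rps23 joined it and the count in both directions was 3, without TPdh-/- TE replicate 3 Rpl37 joined it, and without WT TE replicate 1 or 3 Rpl5 or Rps12 did, with 60, 104, 73 and 178 of all genes in that order. Background coverage was higher in WT TE than in TPdh-/- TE, 0.636 to 1.55 against 0.173 to 0.445 fragments per base. Its part in the absence of these peaks was not tested.

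In equal-sized lists a peak in at least 3 more WT TE than TPdh-/- TE libraries was found for 7 genes, among them Rpl19, Rpl27, Rpl27a, Rpl37, Rplp0 and Rps23 (7.61%, against 2.85% of all genes). The difference in depth remained in these lists. Rps23 was then the gene with a peak in all 4 WT TE and no TPdh-/- TE libraries, against 0.529% of all genes. Rps3 had a peak in 2 WT TE lists of this size.

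In WT cells, TM were compared with TE to ask how the cell types differ when the complex is present. WT TM had 17.8 ± 15.1 and WT TE 29.2 ± 8.26 ribosomal protein genes with a peak per library (SD, n = 4), and the ranges overlapped. The difference of -11.5 genes became -17.6 without WT TM replicate 1 and -6.58 without WT TM replicate 3. A peak was found in fewer WT TM libraries for 40 genes (43.5%), in more for 12 (13%) and in as many for 40, against 23.2% and 18.5% of all genes. At least 3 more WT TE libraries were found for 5 genes, Rpl37, Rpl41, Rpl7l1, Rplp0 and Rps3 (5.43%, against 2.62% of all genes), and at least 3 more WT TM libraries for 0 (0.333% of all genes). Rpl41 codes for the smallest protein of the large subunit, and its fold enrichment was 4.91, 6.16, 4.48 and 4.78 in WT TE and 5.53 in WT TM replicate 1 alone.

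Rps3 and Rpl7l1 had a peak in all 4 WT TE libraries and no WT TM library (2.17%, against 0.269% of all genes, with 0.00912% for the opposite pattern). For each the unadjusted p was 0.0286 and the adjusted p 1 (two-sided Fisher's exact test). Rpl7l1 (chr17:46773907-46782672, minus strand) is a paralog of Rpl7. Its fold enrichment was 4.79, 5.4, 6.75 and 5.28 in WT TE, 4 in TPdh-/- TE replicate 4, and 5.4 and 3.87 in TPdh-/- TM replicates 2 and 4. TPdh-/- TM therefore held peaks at both genes, at Rps3 in replicates 3 and 4 with 5.7 and 4.55. With peaks of −log10 q of at least 5 neither gene had the pattern, and 3 others did, among them Rplp0 and Rps23 (41 of all genes). Without WT TM replicate 1, Rpl37 and Rpl41 joined them, and without WT TM replicate 4 Rplp0 did. The number of all genes with the pattern rose from 59 to 186 and 134 in these settings. In equal-sized lists the genes with this pattern were Rplp0 and Rps23 (2.17%, against 0.556% of all genes), and the 7 genes with at least 3 more WT TE libraries again included Rpl19, Rpl27, Rpl27a, Rpl37, Rplp0 and Rps23 (7.61%, against 2.77% of all genes). This comparison and the one between genotypes in TE share the WT TE libraries. Background coverage was 0.636 to 1.55 in WT TE and 0.354 to 0.572 in WT TM, and its part in these counts was not tested.

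In TPdh-/- cells the numbers lay the other way, with 37.2 ± 5.19 genes per library in TM and 21.8 ± 13.6 in TE (SD, n = 4). The difference of 15.5 genes was 6.5 with peaks of −log10 q of at least 5 and 1.25 in equal-sized lists. The ranges of 34 to 45 and 7 to 38 overlapped, as did background coverage, with 0.186 to 0.261 fragments per base in TM and 0.173 to 0.445 in TE. A peak was found in more TM libraries for 46 genes (50%) and in fewer for 14 (15.2%), against 38.5% and 16.1% of all genes. At least 3 more TM libraries were found for Rpl5, Rpl21, Rpl22, Rpl37, Rplp2, Rps12, Rps20 and Rps23 (8 genes, 8.7%, against 3.82% of all genes), and at least 3 more TE libraries for 0 (0.419% of all genes). Rpl21 (chr5:146832890-146837032), which codes for a protein of the large subunit, had a peak in all 4 TM and no TE library, with 3.91, 4.36, 7.34 and 5.56 from 4, 6, 10 and 7 fragments. It was 1 of 92 genes (1.09%), against 0.397% of all genes, and the opposite pattern was held by 0 of the 92 and 0.0182% of all genes. The unadjusted p of Rpl21 was 0.0286 and its adjusted p 1 (two-sided Fisher's exact test). Outside TPdh-/- TM it had 5.88 and 3.91 in WT TE replicates 1 and 4 and 6.5 in WT TM replicate 1.

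The count of genes with this pattern, 1 with all 8 libraries, rose to 3 genes without TPdh-/- TM replicate 3, with Rpl5 and Rps12, and without TPdh-/- TE replicate 3, with Rpl22 and Rpl37. The number of all genes rose from 87 to 173 and 203 in these settings. It was 2 without TPdh-/- TM replicate 2 (with Rps20), TPdh-/- TE replicate 1 (with Rps23) or TPdh-/- TE replicate 4 (with Rplp2), where all genes numbered 216, 116 and 262. With peaks of −log10 q of at least 5, and in equal-sized lists, 0 ribosomal protein genes had the pattern, against 0.082% and 0.0273% of all genes. In equal-sized lists 0 differed by 3 or more libraries, against 0.15% of all genes with at least 3 more TM libraries. In full lists the mean count was lower in TM than in TE in WT and higher in TPdh-/-. That difference was not tested for presence.

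**Figure D4:**
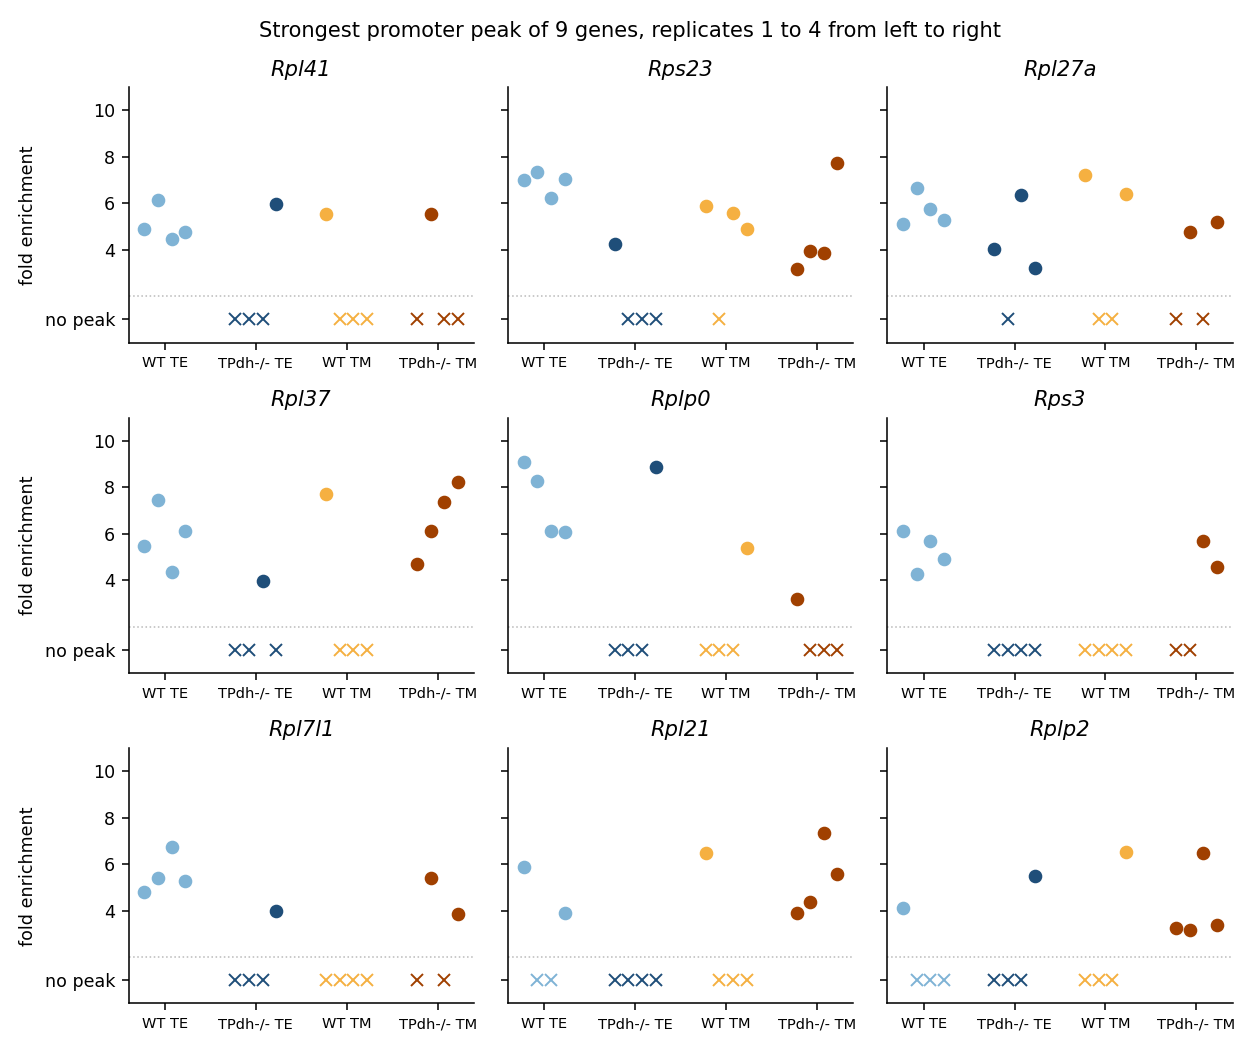
Fold enrichment of the strongest promoter peak of 9 genes in the 4 groups, replicates 1 to 4 from left to right, with crosses under the dotted line for libraries without a peak. Rps3 and Rpl7l1 have 4 points in WT TE and 4 crosses in WT TM, and Rpl21 has 4 points in TPdh-/- TM and 4 crosses in TPdh-/- TE.

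The height of the peaks could be compared at few genes, because a gene needed a peak in all 8 libraries of a comparison. Such genes numbered 68 for TPdh-/- TM against WT TM, 35 for TPdh-/- TE against WT TE, 39 for WT TM against WT TE and 67 for TPdh-/- TM against TPdh-/- TE. On log2 fold enrichment centred within each library, limma called 0 ribosomal protein genes, of which at most 1 entered a comparison, and 0 had an unadjusted p under 0.05. Of all genes tested it also called 0 in each comparison, and 3, 7, 3 and 4 had an unadjusted p under 0.05, in the same order. With a peak in at least 3 of 4 libraries per group, 2 to 5 ribosomal protein genes entered each comparison and limma called 0 of them. Of all genes it called 1 of 532 for TPdh-/- TM against WT TM, 1 of 660 for TPdh-/- TE against WT TE, 0 of 426 for WT TM against WT TE and 3 of 778 for TPdh-/- TM against TPdh-/- TE. The lowest unadjusted p among them was that of Rps27a between TPdh-/- TM and TPdh-/- TE, 0.0099, with a log2 difference of 0.76 ± 0.29 (SE) and an adjusted p of 0.373 over 778 genes. The difference of the genotype effects in TM and TE could be fitted for 8 genes with a peak in all 16 libraries, and none of the 92 was among them.

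Other genes of the translation machinery were described in the same way. Fau, which codes for a ribosomal protein fused to a ubiquitin-like protein, and Rack1, a scaffold on the small subunit, had a peak in 2 libraries each. Of 18 listed symbols of genes for translation factors and other proteins whose messenger RNAs start with pyrimidines, 17 were found, and Gnb2l1 was not. The 17 genes had a median of 7 libraries, and all had a peak in at least 1. Hnrnpa1, an RNA-binding protein gene, had a peak in 13 libraries, Tpt1 in 11, and Pabpc1, the poly(A)-binding protein, and Eif3h, a subunit of an initiation factor, in 10 each. Over these 17 genes, 72.1% of the pairs of gene and library had a peak in TPdh-/- TM, 47.1% in WT TE, 32.4% in WT TM and 30.9% in TPdh-/- TE. The order of the groups at the 77 standard ribosomal protein genes was 44.8% in TPdh-/- TM, 34.7% in WT TE, 26.3% in TPdh-/- TE and 22.1% in WT TM. The 42 ribosome biogenesis genes had a median of 5 libraries, with 42.9% of pairs in TPdh-/- TM, 39.9% in WT TE and 28% in each of the other groups. Mphosph10 had a peak in 13 libraries and Imp4 in 12, and these code for partners in the processing of the small-subunit RNA. All protein-coding genes had 28.3% of pairs in TPdh-/- TM, 18.7% in WT TE, 18.8% in TPdh-/- TE and 15.3% in WT TM.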

How the data were processed

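The deposited peak lists of 16 ATAC-seq libraries (TE and TM cells of WT and TPdh-/- mice, 4 each) were analysed, with groups and replicate numbers taken from the sample titles. The study's methods state that the authors ran Trimmomatic, aligned the reads to GRCm38 with BWA MEM 0.7.17, kept reads placed at a single site, removed blacklisted regions and called peaks in each library with MACS2 2.2.7.1. Versions are those of the submitters' processing notes. The authors deposited for every peak a score, a fold enrichment (a ratio of pileup to background), a −log10 p-value and a −log10 q-value, none of them scaled between libraries. Pileups are of whole fragments, and an offset for the transposase cut is not given in the sources used here.

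Peaks of the autosomes and both sex chromosomes were set against all transcript starts of GENCODE M21 (same build). Summit pileup and background were solved from fold enrichment and p-value under the Poisson model of MACS2, within 0.001 for at least 99.83% of the peaks in each list, and background coverage, from 0.173 to 1.55 fragments per base, served as depth. It stands for the fragments kept for peak calling, and numbers of sequenced reads were not analysed. Low depth limits what a missing peak says: a gene with no peak was not detected at this depth. Presence was tested for each of 21938 genes by two-sided Fisher's exact test (scipy 1.17.1, Benjamini-Hochberg with statsmodels 0.14.6). Fold enrichment was tested with limma 3.58.1 on log2 values centred on the library median, with a threshold of 0.05. Tested on pileups simulated under the same model, all of 4 fragments or more, 100.0% of 3000 were recovered at each background tried. Smaller pileups were not simulated, and the test covers the solving step only. Alternatives were an interval overlap, a 500 bp window, a −log10 q of at least 5, equal-sized lists of 2290 peaks, no centring, a peak in at least 3 of 4 libraries, a replicate block and leaving out each library. Copies were searched with BLAST+ 2.17.0. Sequences are RefSeq promoters of GRCm38.p6, and the 9 printed equal the genome at the stated positions.

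The genes, the lists of other genes and the tests were chosen with earlier results of these data known. Genes were named by rule: the ones with a peak in the fewest libraries, the P-stalk, those separated by presence, those tested by limma, and those that differ by 3 or more libraries in equal-sized lists. As no gene had a peak in all 16 libraries, those in 10 or more, and those differing by 3 or more libraries in full lists, were named after their values were seen. Results of some genes are not reported here.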

Additional observations from a re-analysis of the deposited data

Results flagged for a closer look

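Within groups of 4 libraries, 3 values lay apart from the other replicates, by Dixon's criterion at 95% (the gap to the nearest library over the group's range), among 16 combinations of group and measure. Chance flags about 1 in 20 groups where values have no ties. WT TE replicate 3 had 17 ribosomal protein genes with a promoter peak, against 32 to 35 in the other WT TE libraries, and it also had the shortest list, 2290 peaks. TPdh-/- TM replicate 4 had 45, against 34 to 35 in the other TPdh-/- TM libraries, and the largest share of all protein-coding genes, 33.6%. In equal-sized lists TPdh-/- TM replicate 1 had 3 genes and the other TPdh-/- TM libraries 2 each, a difference of 1 gene. With the other 3 counts tied, the criterion flags a difference of any size, so this flag carries no weight.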

How the results depend on the processing

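The difference in the mean number of ribosomal protein genes with a promoter peak kept its direction under all 48 alternatives over the 4 comparisons. It was 19.5 for TPdh-/- TM minus WT TM and fell to 5.75 with −log10 q of at least 5 and to 1.25 in equal-sized lists. For TPdh-/- TM minus TPdh-/- TE it was 15.5 and fell to 6.5 and 1.25 in the same settings. For TPdh-/- TE minus WT TE it went from -7.5 to -13.8 in equal-sized lists. Leaving out single libraries gave 14.6 to 25.6 for TPdh-/- TM minus WT TM, -12.9 to -2.58 for TPdh-/- TE minus WT TE, -17.6 to -6.58 for WT TM minus WT TE, and 10.6 to 20.9 for TPdh-/- TM minus TPdh-/- TE. The number of genes separated by presence ran, with single libraries left out, from 0 to 3 for TPdh-/- TM against WT TM, 1 to 4 for TPdh-/- TE against WT TE, 2 to 4 for WT TM against WT TE and 1 to 3 for TPdh-/- TM against TPdh-/- TE. Of all genes, 128 to 323 were then separated in favour of TPdh-/- TM over WT TM, against 122 with all libraries. In favour of WT TE these were 54 to 178 over TPdh-/- TE, against 46, and 65 to 217 over WT TM, against 59. In favour of TPdh-/- TM over TPdh-/- TE these were 98 to 262, against 87. A group of 3 meets the pattern more easily than a group of 4. With −log10 q of at least 5 and in equal-sized lists, Rps3 and Rpl7l1 no longer separated WT TE from the groups they had separated it from. For TPdh-/- TM against TPdh-/- TE, 0 ribosomal protein genes were separated with −log10 q of at least 5 and in equal-sized lists. Of all genes, those in favour of TPdh-/- TM fell from 87 to 18 and 6 in these settings, and the cause was not tested. limma called 0 ribosomal protein genes throughout, but none or few entered its fits, so this count says nothing about stability.

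With the replicate block, limma called 0 ribosomal protein genes (0 without it), of which at most 1 entered a comparison. Of all genes tested it called at most 1 in a comparison (0 without the block). Deviations of same-numbered libraries correlated over genes at -0.101 to 0.229, and in no comparison were all 4 over 0.1, so the numbers were not taken to pair libraries.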
